A study of Mus musculus with 15 samples.

Results

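The genes described here were 50 genes of the cell division cycle, chosen by name: 23 that act in S phase, when DNA is copied, and 27 that act in mitosis, when the copied chromosomes are pulled apart. They were looked up by symbol among the 23420 gene rows of a table of transcript abundance from mouse melanoma tumors, and all 50 matched 1 row each. Abundance was given in TPM, the share of a library's transcripts scaled to a sum of 1000000 after division by transcript length, so levels can be compared between genes. Between libraries a TPM is a share, and comparisons depend on the scaling, as given beside the results in which these genes passed a test. All 50 reached 1 TPM in at least 3 libraries, the filter that left 13592 genes for testing.

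A cell commits to copying its DNA when cyclin-dependent kinases free the E2F transcription factors, which switch on the replication genes. Cdc6 and Cdt1 load the ring of Mcm proteins onto origins, Cdc45 and the GINS complex turn it into an unwinding machine, and polymerases then copy the strands while held by the sliding clamp Pcna. Later in the cycle Foxm1 and Mybl2 help to switch on the mitotic genes, whose products (cyclin B with Cdk1, the Polo and Aurora kinases, kinesins, kinetochore proteins and the ligase subunits that end mitosis) build, check and dissolve the spindle. Because these transcripts are low in resting cells, their sum in a piece of tumor depends on which cells it holds and on how many of them are dividing.

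The tumors were syngeneic grafts in female C57BL/6 mice aged 8 weeks, each flank inoculated with 1000000 cells of the parental line D4M.3A.3 or of D3UV2, here UV2, which the series title links to neoantigens induced by UVB light. Therapy was given on days 8, 10 and 12, and the left-flank tumors were collected whole on day 13. There were 15 libraries in 5 groups of 3: parental with isotype control antibody, parental with anti-PD-1 (an antibody that blocks PD-1, an inhibitory receptor on T cells), parental with triple therapy, UV2 with isotype antibody and UV2 with anti-PD-1. The labels conflict on triple therapy: imiquimod (a cream that activates Tlr7) and ablative fractional photothermolysis (a laser, used on days 8 and 12) are listed in both places, but one names anti-PD-1 and the other the isotype antibody as the third component. Each line name stands for 1 cultured line, and separate animals behind the 3 libraries of a group are not stated, so every p-value below measures the spread between these libraries only.

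Promoter windows were read for the 42 genes with an entry in the RefSeq table (GRCm38.p6, 250 bases before to 50 bases after the start). Mcm4, Gins2, Ccne2, Foxm1, Ccna2, Aurkb, Kif20a and Tpx2 were not among them. The letters searched on both strands were TTCCCGC and TTGGCGC (named E2F here), TTTGAA and TTCGAA (CHR, the cell cycle homology region) and CCAAT. Overlapping matches were counted, so a TTGGCGC can share bases with a CCAAT on the other strand. The S phase promoters Mcm3 (chr1:20820263-20820562, minus strand), Mcm6 (chr1:128359656-128359955, minus strand) and Uhrf1 (chr17:56303087-56303386, plus strand) are shown because they carry the E2F letters, in capitals. The mitosis promoters Prc1 (chr7:80294201-80294500, plus strand), Plk1 (chr7:122159185-122159484, plus strand), Ccnb2 (chr9:70421505-70421804, minus strand) and Kif23 (chr9:61946750-61947049, minus strand) are shown because they carry the CHR letters near the start, and Ccnb1 (chr13:100786437-100786736, minus strand) because it does not. In these 5, capitals mark CHR and CCAAT matches only. The Ccnb1 window also holds an E2F match, which shares bases with a CCAAT and is not marked.
Mcm3: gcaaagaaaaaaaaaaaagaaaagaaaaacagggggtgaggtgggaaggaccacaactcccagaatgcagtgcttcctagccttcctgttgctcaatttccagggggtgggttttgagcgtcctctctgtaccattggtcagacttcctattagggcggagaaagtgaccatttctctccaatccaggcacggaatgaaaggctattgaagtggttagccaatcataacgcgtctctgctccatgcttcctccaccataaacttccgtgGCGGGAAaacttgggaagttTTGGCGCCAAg
Mcm6: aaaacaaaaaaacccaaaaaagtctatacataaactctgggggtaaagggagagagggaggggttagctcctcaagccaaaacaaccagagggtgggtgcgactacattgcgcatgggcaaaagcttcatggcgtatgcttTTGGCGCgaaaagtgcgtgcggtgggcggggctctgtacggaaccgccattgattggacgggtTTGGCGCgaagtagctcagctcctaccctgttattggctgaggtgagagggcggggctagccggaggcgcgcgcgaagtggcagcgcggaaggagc
Uhrf1: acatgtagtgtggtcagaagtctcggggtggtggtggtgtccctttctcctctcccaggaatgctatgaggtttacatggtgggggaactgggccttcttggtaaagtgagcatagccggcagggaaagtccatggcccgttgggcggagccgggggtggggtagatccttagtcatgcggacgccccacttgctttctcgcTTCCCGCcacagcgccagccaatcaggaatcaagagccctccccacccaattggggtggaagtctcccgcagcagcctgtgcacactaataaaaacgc
Prc1: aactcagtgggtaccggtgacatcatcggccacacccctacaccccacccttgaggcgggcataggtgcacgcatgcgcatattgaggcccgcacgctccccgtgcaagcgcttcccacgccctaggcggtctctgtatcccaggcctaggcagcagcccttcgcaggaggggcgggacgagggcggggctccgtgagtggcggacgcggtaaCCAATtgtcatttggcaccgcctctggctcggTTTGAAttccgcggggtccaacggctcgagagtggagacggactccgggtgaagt
Plk1: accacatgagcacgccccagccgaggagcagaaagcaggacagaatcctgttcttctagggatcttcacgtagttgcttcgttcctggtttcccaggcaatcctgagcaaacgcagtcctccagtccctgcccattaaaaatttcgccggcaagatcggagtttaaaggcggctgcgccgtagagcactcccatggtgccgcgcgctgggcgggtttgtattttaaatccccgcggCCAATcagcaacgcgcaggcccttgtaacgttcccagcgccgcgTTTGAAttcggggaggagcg
Ccnb2: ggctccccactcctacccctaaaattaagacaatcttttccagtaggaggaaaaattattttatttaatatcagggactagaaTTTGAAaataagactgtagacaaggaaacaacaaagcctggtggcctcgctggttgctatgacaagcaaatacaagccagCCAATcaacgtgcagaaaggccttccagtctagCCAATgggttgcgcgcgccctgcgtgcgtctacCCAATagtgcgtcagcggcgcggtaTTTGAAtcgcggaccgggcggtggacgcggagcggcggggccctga
Kif23: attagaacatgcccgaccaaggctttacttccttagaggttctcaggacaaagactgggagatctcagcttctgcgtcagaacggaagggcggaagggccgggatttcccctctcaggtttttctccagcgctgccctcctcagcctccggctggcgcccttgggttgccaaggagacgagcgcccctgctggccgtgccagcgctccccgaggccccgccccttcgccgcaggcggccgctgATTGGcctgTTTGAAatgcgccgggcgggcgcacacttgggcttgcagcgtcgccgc
Ccnb1: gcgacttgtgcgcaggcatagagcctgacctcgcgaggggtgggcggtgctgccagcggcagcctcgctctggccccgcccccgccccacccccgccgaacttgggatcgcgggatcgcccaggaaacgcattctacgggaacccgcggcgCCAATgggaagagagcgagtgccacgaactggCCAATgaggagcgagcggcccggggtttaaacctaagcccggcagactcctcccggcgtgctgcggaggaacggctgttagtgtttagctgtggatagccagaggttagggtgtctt

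The 2 sets of promoters differed in the letters they held. E2F letters were in 12 of 20 S phase windows (60.0%) and 3 of 22 mitosis windows (13.6%), against 6.93% of all 27025 windows in the table. CHR letters were in 16 of 22 mitosis windows (72.7%) and 4 of 20 S phase windows (20.0%), against 19.4% of all windows. Each of the 16 mitosis windows with CHR letters also held a CCAAT (72.7%, against 15% of S phase windows and 7.70% of all windows). CCAAT alone was frequent everywhere, in 65.0% of S phase, 81.8% of mitosis and 37.9% of all windows. These are matches of letters and not measured binding.

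**Figure D1:**
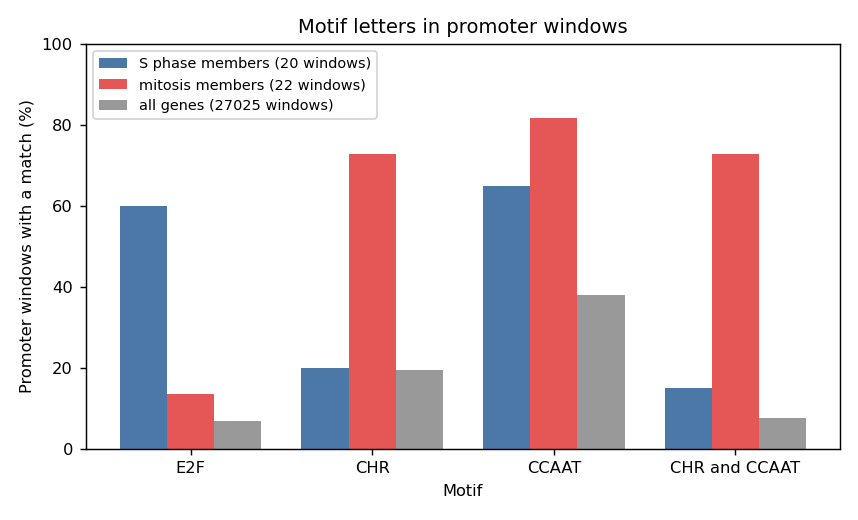
Share of promoter windows (percent, vertical axis) with at least 1 match to each motif, for 20 S phase genes, 22 mitosis genes and all 27025 windows. E2F letters were most frequent in S phase windows (60.0%) and CHR letters in mitosis windows (72.7%).

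Some libraries stood apart from the others in ways that touch these genes. No read counts are in the table, so the depth of the libraries is unknown, and 12239 to 13993 genes reached 1 TPM per library. For each gene the deviation of a library from the gene's mean over the 15 libraries was taken on the log2(TPM + 1) scale. Over the 2552 genes with the longest transcripts (median 6548 bases) the median deviation was -0.76 in UV2 anti-PD-1 replicate 3, -0.70 in UV2 isotype replicate 2, -0.48 in UV2 anti-PD-1 replicate 2 and -0.43 in parental isotype replicate 3, and between -0.09 and 0.45 in the other 11. Transcript length is taken from GENCODE M21 as the longest annotated form, which overstates it where a shorter form is the one made. Parental triple therapy replicate 1 was rich in keratin transcripts (Krt14 at 11620 TPM, against 0 to 845 TPM elsewhere). Of the melanocyte markers, Sox10, Tyrp1, Dct, Pmel and Mlana lay between 0 and 1.6 TPM in 14 libraries and between 1.28 and 6.86 TPM in that replicate, and Mitf lay between 5.28 and 14.2 TPM in all 15. Tyr, the tyrosinase gene, lay between 1.49 and 4.57 TPM in all 15. In bulk tumors, fewer dividing cells and less of a transcript per dividing cell cannot be told apart.

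All 50 genes were above 1 TPM in every library. Among S phase genes the mean over the 15 libraries was highest for the clamp Pcna (378 TPM, range 258 to 468) and lowest for the origin loader Cdc6 (9.0 TPM, range 5.83 to 12.7). Among mitosis genes it was highest for Ube2c, the ubiquitin-conjugating enzyme of the anaphase-promoting complex (181 TPM, range 65.4 to 285), and lowest for the kinetochore protein gene Cenpf (10.8 TPM, range 3.42 to 17.9). The span between libraries was widest among mitosis genes for Foxm1, the transcription factor, 2.28 on the log2(TPM + 1) scale and narrowest for Mad2l1, a spindle checkpoint protein gene, 0.87. In S phase the widest span was that of the cyclin gene Ccne2, 1.73, and the narrowest that of the thymidylate synthase gene Tyms, 0.64.

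The lowest library of a gene was nearly always one of a few. UV2 anti-PD-1 replicate 3 was the lowest of 15 for 19 of the 27 mitosis genes, and parental triple therapy replicate 1 for the other 8. For the 23 S phase genes the lowest was UV2 anti-PD-1 replicate 2 for 9, parental triple therapy replicate 1 for 7 and UV2 anti-PD-1 replicate 3 for 5. The exceptions were Cdt1, lowest in parental isotype replicate 2, and Ccne1, lowest in parental anti-PD-1 replicate 2.

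**Figure D2:**
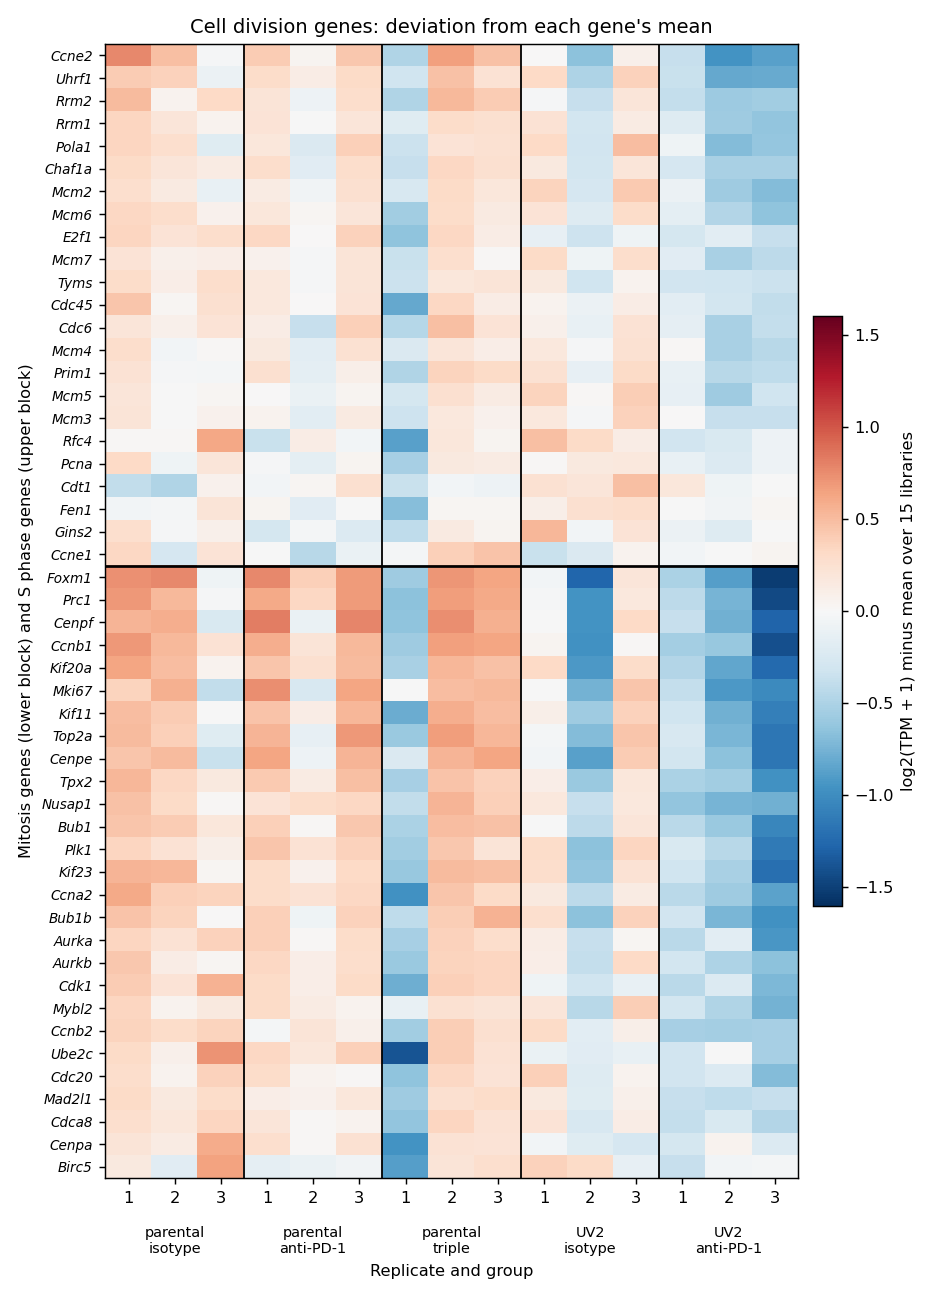
Each row is a gene and each column a library, grouped by line and treatment. The colour is log2(TPM + 1) minus the gene's mean over the 15 libraries, with S phase genes above the black line and mitosis genes under it, each block ordered by the UV2 against parental difference under anti-PD-1. Blue columns mark parental triple therapy replicate 1, UV2 isotype replicate 2 and the 3 UV2 anti-PD-1 libraries, the last most of all in the mitosis block.

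Summarised per library, the median level of the 27 mitosis genes was 6.06 ± 0.17 (log2(TPM + 1), mean and SD, n = 3) in parental isotype, 6.05 ± 0.13 in parental anti-PD-1 and 5.85 ± 0.55 in parental triple therapy tumors. It was 5.70 ± 0.42 in UV2 isotype and 5.20 ± 0.39 in UV2 anti-PD-1 tumors. The median of the 23 S phase genes was 5.70 ± 0.14, 5.67 ± 0.19 and 5.62 ± 0.29 in the 3 parental groups in that order, 5.75 ± 0.30 in UV2 isotype and 5.24 ± 0.22 in UV2 anti-PD-1 tumors. For S phase genes the 3 UV2 isotype libraries (5.94, 5.40 and 5.89) lay on both sides of the parental isotype range of 5.59 to 5.86. For mitosis genes UV2 isotype replicate 2 (5.21) lay under all 3 parental isotype libraries and the other 2 (5.92 and 5.96) inside their range of 5.89 to 6.23.

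The 2 phases were set against each other within each library, which removes what scales all transcripts alike. The mitosis median exceeded the S phase median by 0.24 to 0.46 in the 6 parental isotype and anti-PD-1 libraries (log2 scale). In UV2 the difference was -0.03, -0.19 and 0.07 in isotype replicates 1, 2 and 3 and 0.02, 0.22 and -0.35 in anti-PD-1 replicates 1, 2 and 3. All 6 UV2 values therefore lay under those 6 parental values. In triple therapy tumors it was 0.35 and 0.40 in replicates 2 and 3 and -0.07 in replicate 1. No test is given for such a summary, since the genes were chosen with results known.

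**Figure D3:**
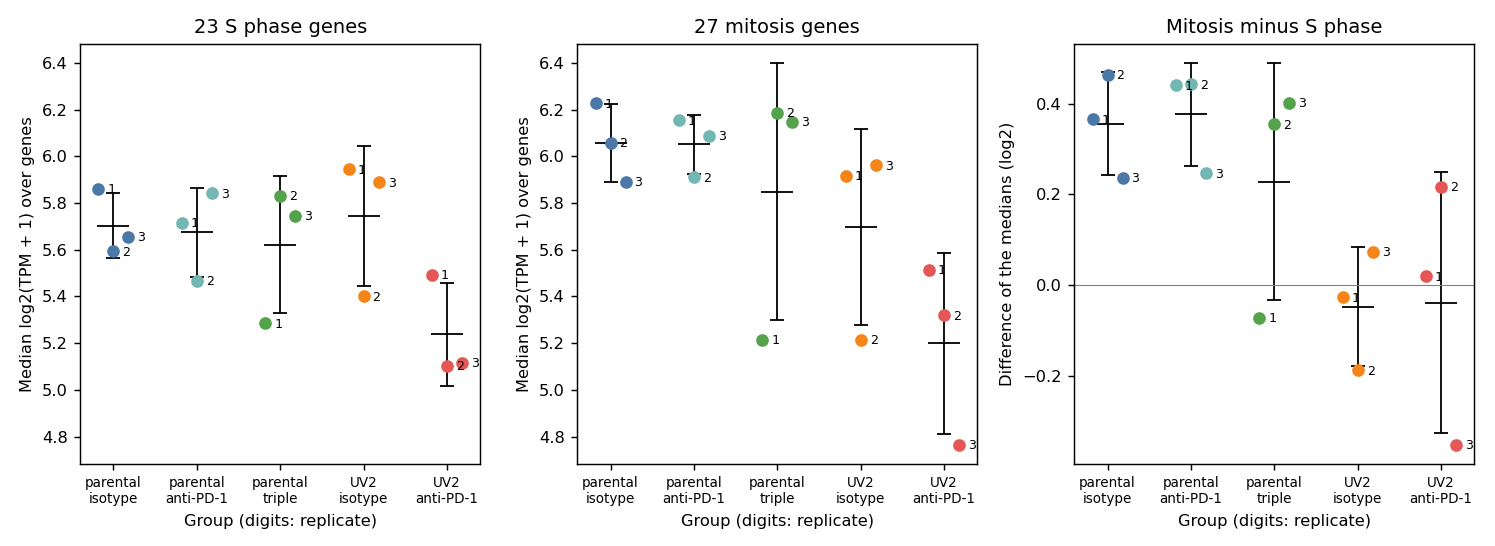
Median log2(TPM + 1) of the 23 S phase genes (left), of the 27 mitosis genes (middle) and their difference (right) in each library, with digits for replicates and bars for the mean and SD of a group (n = 3). The 6 UV2 points of the right panel lie between -0.35 and 0.22, under the 6 parental isotype and anti-PD-1 points.

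The first comparison asked how the lines differed without active therapy. Under isotype antibody 0 of the 50 genes passed the test (limma, Benjamini-Hochberg adjusted p under 0.05 over 13592 genes), where 1.29% of all genes did, and 4 had an unadjusted p under 0.05, against 17.8% of all genes. The median log2 fold change, UV2 over parental, was -0.36 for mitosis genes and -0.04 for S phase genes, beside -0.04 for all genes. Of the 27 mitosis genes 27 had negative values, from -0.85 (Foxm1) to -0.03 (Birc5, the survivin gene), while 11 of 23 S phase genes had positive ones. Without UV2 isotype replicate 2 the medians were -0.11 for mitosis and 0.08 for S phase genes.

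Cdt1, which loads origins together with Cdc6, had the smallest p among S phase genes and was on the high side in UV2. It stood at 32.3, 31.1 and 38.2 TPM in UV2 isotype replicates 1 to 3 and at 20.5, 19.2 and 28.6 TPM in the parental ones. The groups did not overlap, and the log2 fold change was 0.57 ± 0.17 (SE, adjusted p = 0.106). E2f1, a transcription factor of the S phase program, stood at 65.2, 56.4 and 67.8 TPM in UV2 and at 90.6, 82.7 and 86.8 TPM in parental libraries. Its log2 fold change was -0.46 ± 0.20 (adjusted p = 0.264), again without overlap.

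Among mitosis genes Cdk1, the kinase that drives entry into mitosis, stood at 76.8, 64.4 and 74.5 TPM in UV2 isotype and 107, 94.2 and 119 TPM in parental isotype libraries (-0.56 ± 0.25, adjusted p = 0.269). Its partner cyclin gene Ccnb1 stood at 77.9, 38.1 and 76.9 TPM against 123.1, 109 and 89.5 TPM (-0.79 ± 0.36, adjusted p = 0.271). In both the 3 UV2 libraries were under the 3 parental ones, and neither difference passed the test.

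Under anti-PD-1 the lines differed in many of these genes. Of the 27 mitosis genes 17 fell in UV2 relative to parental tumors (63.0%), and of the 23 S phase genes 3 did (13.0%), while 0 of 50 rose. Among all genes 17.1% fell and 9.31% rose, so the S phase share was near the background and the mitosis share above it. The median log2 fold change was -0.91 for mitosis genes, -0.42 for S phase genes and -0.21 for all genes. Rescaling by the median of ratios moved these medians to -0.65, -0.15 and 0.04, and 10 mitosis and 2 S phase genes then fell, where 13.1% of all genes did. The sign was negative for all 27 mitosis genes as deposited, and Birc5 turned positive under median-of-ratios scaling (0.22) and quantile normalization (0.02). Leaving out UV2 anti-PD-1 replicate 3, or parental anti-PD-1 replicate 3, brought the number of called genes from 20 to 0, with mitosis medians of -0.75 and -0.88. Without parental anti-PD-1 replicate 1 it was 1 and without UV2 anti-PD-1 replicate 2 it was 4. The share of all genes called in these fits is not given here, so the loss of calls cannot be read as particular to these genes.

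**Figure D4:**
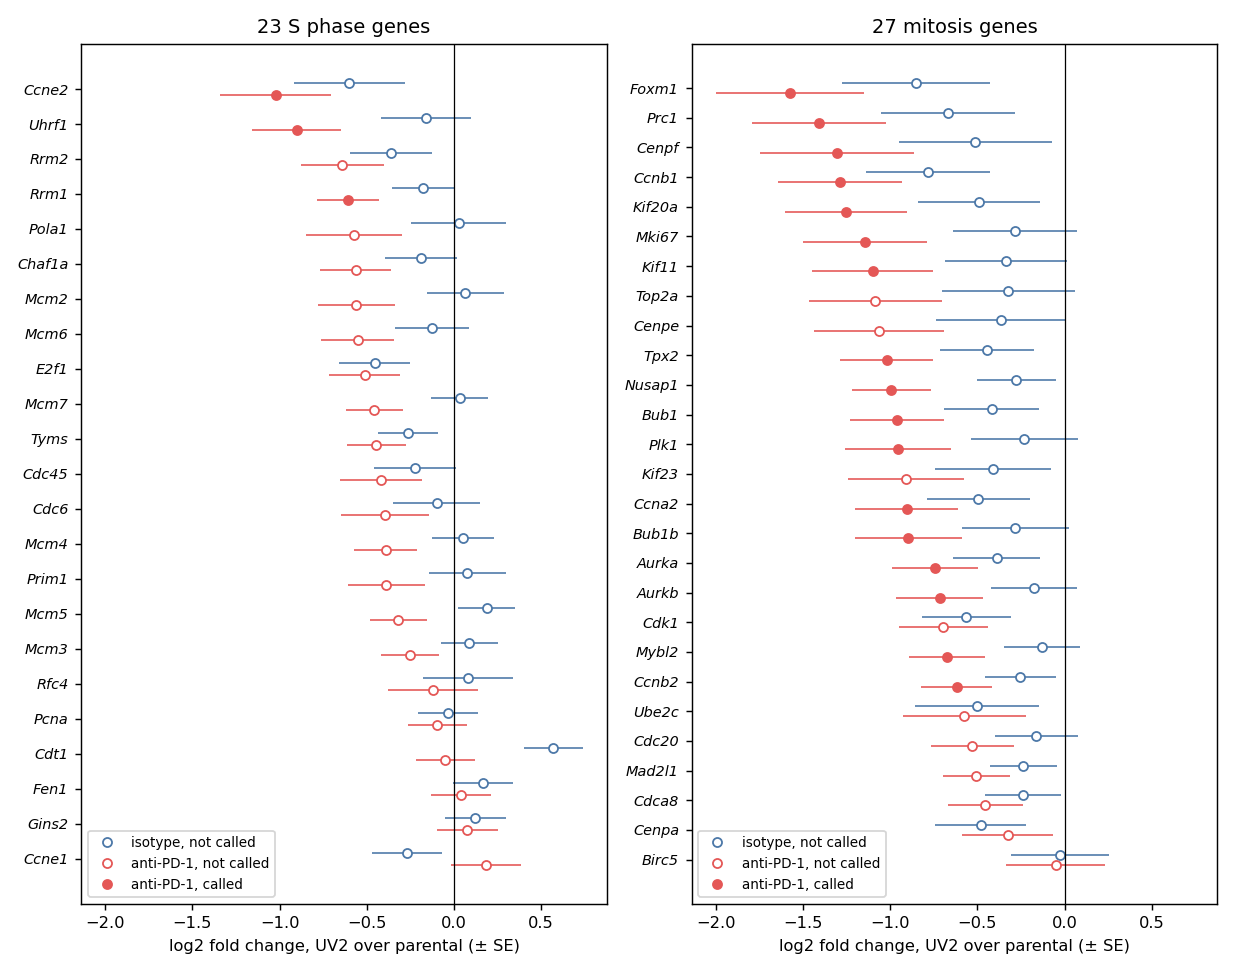
Log2 fold change of UV2 over parental tumors (horizontal axis, bars ± SE, 3 libraries per group) for each gene under isotype antibody (blue) and anti-PD-1 (red), with filled points for an adjusted p under 0.05. Under anti-PD-1 the 27 mitosis genes lie between -1.58 and -0.05 and 17 are filled, and Birc5, the rightmost, changes sign under other scalings.

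The transcription factors of the mitotic program were among those that fell. Foxm1 (chromosome 6, 128362967 to 128376146 on GRCm38), which activates many mitotic genes, was at 75.7, 77.7 and 42.8 TPM in parental isotype, 77.5, 58.9 and 73.1 TPM in parental anti-PD-1 and 30.1, 74.2 and 70.7 TPM in parental triple therapy replicates 1 to 3. In UV2 it was at 43.8, 18.1 and 51.5 TPM under isotype and 31.5, 23.98 and 15.2 TPM under anti-PD-1. All 3 UV2 anti-PD-1 libraries were under all 3 parental anti-PD-1 libraries, the lowest being replicate 3. Foxm1 was 2.98-fold lower in UV2 (log2 fold change -1.58 ± 0.42, adjusted p = 0.0250), the widest difference of the 50. Mybl2, a subunit of the complex that works with Foxm1, was at 11.4, 9.83 and 7.96 TPM in UV2 and 17.8, 15.6 and 14.8 TPM in parental libraries (-0.67 ± 0.22, adjusted p = 0.0403).

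Of the cyclins and their kinase, all had negative values, and the cyclins passed the test while the kinase did not. Ccnb1 (chromosome 13, 100778650 to 100786570) was at 51.64, 49.3 and 28.0 TPM in UV2 and at 114, 87.4 and 109 TPM in parental anti-PD-1 libraries, with no overlap (-1.29 ± 0.36, adjusted p = 0.0267). The other B-type cyclin gene, Ccnb2, was at 49.8, 49.3 and 49.6 TPM against 70.6, 83.6 and 76.1 TPM (-0.62 ± 0.20, adjusted p = 0.0432), values that hardly differed among the 3 UV2 libraries. Ccna2, the cyclin of S and G2 phase, was at 82.3, 75.2 and 61.5 TPM against 137, 131 and 141 TPM (-0.90 ± 0.30, adjusted p = 0.0421). Cdk1 itself, at 59.8, 69.2 and 48.7 TPM against 100, 87.1 and 99.8 TPM, did not pass (-0.69 ± 0.25, adjusted p = 0.0575). The ratio of Ccnb1 to Ccnb2 in TPM was 0.97 to 1.62 in the 6 parental isotype and anti-PD-1 libraries and 0.57 to 1.04 in the 6 UV2 libraries, ranges that overlap.

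Among genes of the spindle Nusap1 and Tpx2 had the smallest p-values of the 50. Nusap1 (chromosome 2, 119618298 to 119651244), whose product bundles spindle microtubules, was at 20.1, 18.5 and 18.1 TPM in UV2 and 37.0, 39.0 and 40.0 TPM in parental anti-PD-1 libraries. The 2 groups were tight and far apart, 1.99-fold lower in UV2 (-0.99 ± 0.23, adjusted p = 0.0170). Tpx2 (chromosome 2, 152847964 to 152895321), the activator of Aurora A on the spindle, was at 36.4, 35.0 and 26.2 TPM against 70.3, 57.0 and 72.9 TPM (-1.02 ± 0.27, adjusted p = 0.0238). Prc1 (chromosome 7, 80294450 to 80316259), which crosslinks the microtubules of the central spindle, was at 66.7, 52.9 and 32.4 TPM against 137, 113 and 144 TPM (-1.41 ± 0.38, adjusted p = 0.0262). The motor gene Kif20a, needed for cytokinesis, was at 33.0, 25.4 and 18.9 TPM against 63.2, 55.2 and 65.8 TPM (-1.25 ± 0.35, adjusted p = 0.0276). Kif11, the motor that separates the spindle poles, also fell (-1.10 ± 0.35), whereas Kif23, a central spindle motor, did not pass (-0.91 ± 0.33, adjusted p = 0.0584).

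Several mitotic kinase genes fell. Plk1, the Polo kinase, was at 48.3, 41.9 and 25.7 TPM in UV2 and 78.6, 67.5 and 74.5 TPM in parental anti-PD-1 libraries (-0.96 ± 0.30, adjusted p = 0.0397). Aurka was at 32.03, 38.5 and 22.2 TPM against 57.1, 43.9 and 53.4 TPM (-0.74 ± 0.25, adjusted p = 0.0440), and Aurkb at 44.7, 38.9 and 34.5 TPM against 69.2, 59.1 and 67.0 TPM (-0.72 ± 0.25, adjusted p = 0.0492). The checkpoint kinase gene Bub1 and its relative Bub1b fell by 0.96 and 0.90 on the log2 scale. In each of these the UV2 and parental libraries did not overlap.

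Kinetochore, chromosome and exit genes all had negative values as deposited, and some passed the test while others did not. Cenpf, a large protein of the outer kinetochore, was at 7.29, 5.28 and 3.42 TPM in UV2 and 17.9, 8.91 and 17.5 TPM in parental anti-PD-1 libraries (-1.30 ± 0.44, adjusted p = 0.0458). The proliferation marker Mki67 was at 26.8, 18.1 and 16.9 TPM against 59.5, 29.1 and 55.0 TPM (-1.14 ± 0.35, adjusted p = 0.0369). Both were lowest of the parental anti-PD-1 group in replicate 2. Top2a, the topoisomerase that untangles chromosomes, was at 83.8, 60.0 and 44.1 TPM against 147, 91.3 and 162 TPM and did not pass (-1.08 ± 0.38, adjusted p = 0.0513). The kinetochore motor Cenpe (-1.06), the checkpoint gene Mad2l1 (-0.51), the centromeric histone gene Cenpa (-0.33), the passenger complex genes Cdca8 (-0.45) and Birc5 (-0.05), and Cdc20 (-0.53) and Ube2c (-0.57) of the anaphase-promoting complex did not pass either. Birc5 was at 107, 134 and 136 TPM in UV2 and 126, 130 and 134 TPM in parental anti-PD-1 libraries, which overlap.

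Of the 23 S phase genes 3 fell, near the background share of 17.1% of all genes. These 3 act in chromatin copying, nucleotide supply and entry into S phase. Uhrf1 (chromosome 17, 56303321 to 56323486), which brings the maintenance DNA methyltransferase to new DNA, was at 46.3, 33.4 and 33.7 TPM in UV2 and 73.5, 64.8 and 73.8 TPM in parental anti-PD-1 libraries (-0.90 ± 0.26, adjusted p = 0.0284). Rrm1 (chromosome 7, 102441695 to 102469771), the large subunit of ribonucleotide reductase, was at 69.0, 53.5 and 51.4 TPM against 93.5, 79.5 and 91.9 TPM (-0.61 ± 0.18, adjusted p = 0.0320). Ccne2 (chromosome 4, 11191351 to 11204779), an E-type cyclin, was at 11.1, 7.06 and 7.55 TPM against 19.7, 15.1 and 20.0 TPM (-1.02 ± 0.32, adjusted p = 0.0368). Each was lower in all 3 UV2 libraries than in all 3 parental ones.

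The other E-type cyclin gene, Ccne1, went the other way in sign: 19.0, 19.4 and 20.1 TPM in UV2 and 19.5, 14.1 and 18.1 TPM in parental anti-PD-1 libraries, with overlap (0.18 ± 0.20, adjusted p = 0.481). The ratio of Ccne2 to Ccne1 in TPM was 0.59, 0.36 and 0.37 in UV2 anti-PD-1 replicates 1 to 3 and 1.01, 1.07 and 1.11 in the parental anti-PD-1 replicates. Under isotype antibody the ratios were 0.98, 0.54 and 0.76 in UV2 and 1.04, 1.30 and 0.63 in parental libraries, which overlap.

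The remaining replication genes did not pass. The 6 Mcm genes, which form the helicase ring, ranged from -0.56 (Mcm2) to -0.25 (Mcm3). Mcm2 was at 44.1, 31.5 and 28.7 TPM in UV2 and 51.5, 45.3 and 56.3 TPM in parental anti-PD-1 libraries (-0.56 ± 0.22, adjusted p = 0.0713). Pcna was at 344, 321 and 353 TPM against 369, 335 and 386 TPM, overlapping (-0.10 ± 0.17, adjusted p = 0.674). Rrm2, the small subunit of ribonucleotide reductase, was at 67.4, 58.7 and 59.8 TPM against 102, 83.5 and 107 TPM (-0.64 ± 0.24, adjusted p = 0.0591). Cdc6 was at 7.83, 5.83 and 6.48 TPM against 9.60, 6.59 and 11.8 TPM (-0.40 ± 0.25, adjusted p = 0.227), and Cdt1, on the high side in UV2 under isotype, had a value of -0.05 ± 0.17 here, positive under median-of-ratios scaling (0.22), quantile normalization (0.19) and length removal (0.01). The flap nuclease Fen1 and the GINS subunit Gins2 had values of 0.04 and 0.08.

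With the 2 antibodies averaged, the line difference was estimated from all 12 isotype and anti-PD-1 libraries, the same ones as above, so it is no separate evidence. In UV2 15 of 27 mitosis genes (55.6%) and 6 of 23 S phase genes (26.1%) fell and 0 of 50 rose, where 19.6% of all genes fell and 13.4% rose. The medians were -0.64 for mitosis, -0.25 for S phase and -0.12 for all genes. Median-of-ratios scaling gave 10 mitosis genes and 1 S phase gene lower, with 16.9% of all genes lower, and Cdt1 then rose (0.43 ± 0.14, adjusted p = 0.0347). Smallest p-values were those of Ccnb1 (-1.04 ± 0.25, adjusted p = 0.0100), Foxm1 (-1.21 ± 0.30, adjusted p = 0.0108), Nusap1 (-0.64 ± 0.16), Tpx2 (-0.73 ± 0.19), Prc1 (-1.04 ± 0.27) and Bub1 (-0.69 ± 0.19). Of the 2 comparisons' calls 16 were shared. Cdk1, Kif23, E2f1, Rrm2 and Tyms were called in the average only, and Aurkb, Bub1b, Mybl2 and Plk1 under anti-PD-1 only. For Ccnb1, Ccna2, Cdk1, E2f1 and Ube2c (the last not called) the 6 UV2 libraries lay under the 6 parental ones, and for Foxm1, Nusap1, Tpx2, Prc1 and Bub1 they overlapped. Leaving out single libraries gave 7 to 27 called genes, 7 both without parental isotype replicate 1 and without UV2 anti-PD-1 replicate 3. Shares of all genes in these fits are not given here either.

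Because long transcripts were low in several UV2 libraries, the members' lengths were set beside their changes. Lengths ran from 1466 to 11130 bases among mitosis genes (median 3421) and from 1279 to 5535 bases among S phase genes (median 3031). Under anti-PD-1 the 9 shortest mitosis genes (1466 to 2489 bases: Cenpa, Ccnb2, Cdca8, Cdc20, Aurka, Aurkb, Ube2c, Plk1 and Ccnb1) had a median log2 fold change of -0.62 and the 9 longest (4365 to 11130 bases) one of -1.08. For S phase genes the median was -0.12 in the 7 shortest (1279 to 2193 bases) and -0.55 in the 7 longest (3589 to 5535 bases). After each library's trend with transcript length was subtracted over 12759 genes (a choice made after seeing the data), the 9 shortest mitosis genes stood at -0.71 and the 9 longest at -0.45. The 7 shortest S phase genes then stood at -0.29 and the 7 longest at -0.01.

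**Figure D5:**
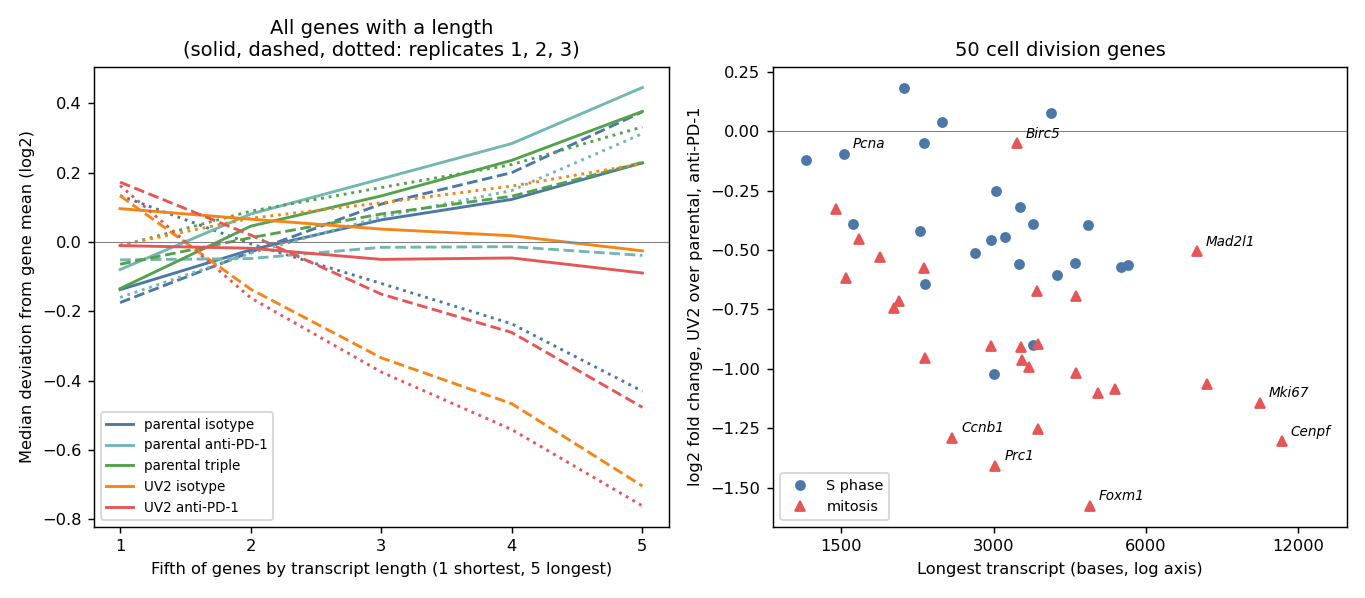
Left, median deviation from the gene mean (log2) in each of 5 equal classes of genes by transcript length, 1 line per library: 2 UV2 libraries fall to -0.76 and -0.70 in the longest class. Right, log2 fold change of UV2 over parental under anti-PD-1 against transcript length (log axis) for the 50 genes as deposited, with longer mitosis genes such as Mki67 and Cenpf low and shorter ones such as Ccnb1 also low.

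With the length trend removed 10 of 27 mitosis genes fell under anti-PD-1, all 10 among the 17 called before: Aurka, Aurkb, Bub1, Ccnb1, Ccnb2, Foxm1, Kif20a, Nusap1, Plk1 and Prc1. Of the S phase genes 1 fell, Uhrf1, and 13.0% of all genes fell. The medians became -0.59 for mitosis, -0.16 for S phase and 0.01 for all genes. Foxm1 stood at -1.10 (adjusted p = 0.0246), Prc1 at -1.15 (adjusted p = 0.0244) and Ccnb1 at -1.16 (adjusted p = 0.0212). Mki67 moved from -1.14 to -0.31 (adjusted p = 0.144) and Cenpf from -1.30 to -0.45 (adjusted p = 0.261). Mad2l1 and Birc5 then had positive values, 0.24 and 0.25. In the average of both antibodies 14 mitosis and 2 S phase genes fell, with 18.1% of all genes lower and medians of -0.45, -0.06 and 0.01. The mitosis minus S phase difference per library was 0.25 to 0.53 in the 6 parental isotype and anti-PD-1 libraries and -0.48 to 0.12 in the 6 UV2 libraries after this step.

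Leaving out together the 2 UV2 libraries with the steepest length trend, a choice also made after seeing the data, gave 0 called genes of 50 in both. Under anti-PD-1 only 0.147% of all genes then fell, and in the average 5.28% did. The mitosis medians were -0.75 and -0.44 and the S phase medians -0.38 and -0.12. Under anti-PD-1 27 of the 50 genes still had an unadjusted p under 0.05, against 33.8% of all genes, with Foxm1 at -1.30 ± 0.37 (adjusted p = 0.0657) and Nusap1 at -0.96 ± 0.24 (adjusted p = 0.0581). In the average 14 of 50 did, against 31.8% of all genes.

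Within each line, tumors given anti-PD-1 were set against those given isotype antibody, which asked whether checkpoint blockade changed these genes. In parental tumors 0 of 50 genes passed, as did 0% of all genes, and 0 had an unadjusted p under 0.05. The medians were -0.04 for mitosis and -0.09 for S phase genes. The smallest p were those of Cdt1 (0.35 ± 0.17) and Gins2 (-0.29 ± 0.18) in S phase and Ccnb2 (-0.25 ± 0.20) and Birc5 (-0.31 ± 0.28) in mitosis, each with an adjusted p of 1.00.

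In UV2 tumors 0 of 50 passed either, where 0.0147% of all genes did, but 14 had an unadjusted p under 0.05 (10 S phase and 4 mitosis), against 9.16% of all genes. The medians were -0.58 for mitosis and -0.45 for S phase genes, and 48 of the 50 values were negative. The median over all genes and rescaled values are not given for this comparison. Of further lists, 37 of 37 origin and fork genes, 12 of 14 anaphase-promoting complex genes and 14 of 25 histone genes were negative. Their medians were -0.39, -0.26 and -0.02, and -0.27, -0.14 and -0.10 with the length trend removed. All 43 kinetochore, spindle and cytokinesis, 17 checkpoint and repair and 13 condensin and cohesin genes were negative. Medians were -0.52, -0.49 and -0.47, and -0.40 (39 genes), -0.30 and -0.29 after length removal. Negative too were 14 of 17 Rb, E2F and DREAM genes, 8 of 8 G1 cyclins and kinases and 4 of 7 kinase inhibitor genes. Medians of these were -0.27, -0.19 and -0.09, and -0.12, -0.12 and 0.03 after length removal. Long transcripts were low in UV2 anti-PD-1 replicates 2 and 3 and in UV2 isotype replicate 2. Mcm5, a helicase subunit, was at 60.1, 44.2 and 52.5 TPM under anti-PD-1 and 84.8, 66.7 and 86.9 TPM under isotype antibody, with no overlap (-0.60 ± 0.16, adjusted p = 0.542). Mcm7, another subunit, was at 73.6, 57.7 and 61.9 TPM against 103, 79.1 and 102 TPM (-0.55 ± 0.16). Nusap1 was at 20.1, 18.5 and 18.1 TPM against 35.6, 24.3 and 35.8 TPM (-0.70 ± 0.23), and Ccnb2 at 49.8, 49.3 and 49.6 TPM against 89.5, 64.3 and 77.4 TPM (-0.61 ± 0.20), each with the same adjusted p.

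Whether the antibody effect differed between the lines was tested as a difference of differences. It passed for 0 of 50 genes and 0% of all genes, and 3 of 50 had an unadjusted p under 0.05, against 2.97% of all genes. The medians were -0.54 for mitosis and -0.37 for S phase genes. The S phase genes with the smallest p were Cdt1 (-0.62 ± 0.24) and Mcm5 (-0.51 ± 0.23), and the mitosis genes with the smallest p were Nusap1 (-0.72 ± 0.32) and Mybl2 (-0.54 ± 0.31), all with an adjusted p of 0.800. The line difference under anti-PD-1 was therefore not shown to differ from that under isotype antibody.

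Triple therapy was compared with the other parental groups. Against isotype antibody 0 of 50 genes passed, where 0.0221% of all genes did, and 0 had an unadjusted p under 0.05, against 12.6% of all genes. Against anti-PD-1 0 passed, as did 0% of all genes, and 1 had an unadjusted p under 0.05, Ccne1 (0.46 ± 0.20, adjusted p = 0.454), against 10.4% of all genes. The medians against isotype were -0.23 for mitosis and -0.14 for S phase genes, and 0.11 and 0.08 without triple therapy replicate 1. In that replicate Ube2c was at 65.4 TPM, against 228 and 202 TPM in the other 2, and Ccna2 at 56.4 TPM, against 152 and 139 TPM. Among the 9 parental libraries it was the lowest for 25 of 27 mitosis and 21 of 23 S phase genes, and the 7 keratinocyte markers summed to 16095 TPM in it, against 116 and 1149 TPM in the other triple therapy libraries and 2.14 to 3.96 TPM in the other parental ones. The 6 fibroblast markers summed to 28133 TPM in it, against 2870 to 12531 TPM in the other 8 parental libraries. The 4 neutrophil markers summed to 3251 TPM, against 17.9 to 475 TPM, and the 4 endothelial markers to 320 TPM, against 43.2 to 145 TPM. The part of these cells in the low values was not tested. Ccna2 (-0.52 ± 0.30, adjusted p = 0.481) and Cenpa (-0.48 ± 0.26) in mitosis and Rfc4, a clamp loader subunit (-0.44 ± 0.26), and E2f1 (-0.34 ± 0.20) in S phase had the smallest p against isotype, and Ube2c (-0.55 ± 0.35) and Cenpa (-0.34 ± 0.26) in mitosis and E2f1 (-0.30 ± 0.20) in S phase stood beside Ccne1 against anti-PD-1.

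Other genes of the cycle, in lists chosen by function, were read in the same way for the line comparison under anti-PD-1, where 17.1% of all genes fell and 9.31% rose. Of 43 further kinetochore, spindle and cytokinesis genes 27 fell and 1 rose, with a median of -0.75. The checkpoint kinase Ttk (-1.09 ± 0.28, adjusted p = 0.0226) and the motor genes Kif4 (-1.30 ± 0.35, adjusted p = 0.0243) and Kif18b (-1.19 ± 0.32, adjusted p = 0.0253) were among those that fell. The 1 that rose, singled out for that reason, was Pttg1, the securin gene, at 63.3 ± 17.2 TPM in UV2 and 34.3 ± 7.55 TPM in parental anti-PD-1 tumors, and its log2 fold change in the average of both antibodies was 0.75 ± 0.19 (adjusted p = 0.0119). Of 13 condensin and cohesin genes, whose products fold and hold the chromosomes, 9 fell (median -0.76), among them Ncapg (-1.09 ± 0.30). With the length trend removed 15 of the 39 kinetochore, spindle and cytokinesis genes with a length fell. Of the 13 condensin and cohesin genes 3 did, where 13.0% of all genes fell.

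Further lists were read for replication, checkpoint, mitotic exit and transcription genes in the same comparison, where 17.1% of all genes fell. The shares of origin and fork genes and of histone genes that fell were under it. Of 37 further origin and fork genes 4 fell (median -0.36), among them the origin recognition gene Orc1 (-0.73 ± 0.22) and the primase gene Prim2 (-0.86 ± 0.26). Of 25 tested replication-dependent histone genes 2 fell (Hist2h2be at -1.33 ± 0.27 and Hist1h2bc at -0.44 ± 0.13), with a median of -0.12, and near-identical copies and their lack of poly(A) tails make these levels uncertain. Of 17 checkpoint and repair genes 4 fell (median -0.64), led by the phosphatase gene Cdc25b, which activates Cdk1 (-1.33 ± 0.27, adjusted p = 0.0133). Of 14 genes of the anaphase-promoting complex 3 fell (median -0.29). Of 17 Rb, E2F and DREAM genes 5 fell (median -0.59), among them the atypical repressor E2f7, at 2.82 ± 0.88 TPM in UV2 and 7.88 ± 1.72 TPM in parental tumors (-1.22 ± 0.30, adjusted p = 0.0204), and Rb1 did not pass (-0.43 ± 0.28, adjusted p = 0.229). With the length trend removed 3 origin and fork, 3 histone, 2 checkpoint and 0 anaphase-promoting complex genes fell. Of the Rb, E2F and DREAM genes 3 fell and 2 rose. Among all genes 13.0% fell in that setting, and the share that rose is not given here. The medians were then -0.16, -0.42, -0.21, -0.12 and -0.13 in that order.

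Regulators of the G1 step included genes that fell and genes that rose, where 17.1% of all genes fell and 9.31% rose. In both of these short lists the share that fell was near that of all genes. Of 8 G1 cyclins and kinases 1 fell, Cdk6 (-1.69 ± 0.52, adjusted p = 0.0362), while the cyclin D1 gene Ccnd1 did not pass at 346 ± 121 TPM in UV2 and 925 ± 232 TPM in parental anti-PD-1 tumors (-1.45 ± 0.56, adjusted p = 0.0678), nor did Cdk4 (-0.27 ± 0.17). Of 7 inhibitor genes of these kinases 1 fell and 2 rose. Cdkn1a, which encodes p21, was at 120 ± 14.0 TPM in UV2 and 232 ± 40.8 TPM in parental anti-PD-1 tumors (-0.93 ± 0.17, adjusted p = 0.0106). Cdkn2a, which encodes p16 and Arf, rose from 0.67 ± 0.54 to 2.23 ± 0.56 TPM (0.98 ± 0.34, adjusted p = 0.0474), a level near the filter. Cdkn1c rose as well (2.84 ± 0.89, adjusted p = 0.0380), from 0.97 ± 0.90 to 15.8 ± 12.5 TPM. Cdkn1b and Cdkn2c did not pass. With the length trend removed 1 of the 8 G1 cyclins and kinases fell, and of the 7 inhibitor genes 1 fell and 1 rose. Among all genes 13.0% fell in that setting, and the share that rose is not given here.

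Under anti-PD-1 the sums of T cell and macrophage markers were higher in UV2 tumors, while those of fibroblast and keratinocyte markers overlapped between the lines. The 8 T cell markers summed to 365 to 501 TPM in UV2 anti-PD-1 and 36.1 to 108 TPM in parental anti-PD-1 libraries, and to 70.5 to 321 TPM and 40.3 to 141 TPM under isotype antibody. Of the 8, 7 rose under anti-PD-1, where 9.31% of all genes rose, and none of the 8 was at 0 in all 3 libraries of a group. Under isotype antibody 0 of the 8 passed, where 1.29% of all genes did. The 7 macrophage markers summed to 9139 to 13344 TPM in UV2 anti-PD-1 and 2431 to 3909 TPM in parental anti-PD-1 libraries, and 5 rose. Fibroblast markers (6 genes) summed to 2550 to 11245 TPM and 2870 to 8248 TPM in the same 2 groups, and 1 gene rose and 1 fell. Keratinocyte markers (7 genes) summed to 2.44 to 320 TPM and 2.14 to 2.70 TPM, and 0 of the 6 tested passed. The 320 TPM was that of UV2 anti-PD-1 replicate 3, the lowest library for 19 of the 27 mitosis genes. B cell markers summed to 28.0 to 37.3 TPM and 2.71 to 10.4 TPM, and 1 of the 2 tested rose. Neutrophil markers (55.1 to 198 TPM and 25.3 to 70.0 TPM) and endothelial markers (44.8 to 112 TPM and 43.2 to 145 TPM) had 0 called genes. The part of these cells in the lower mitosis values was not tested.

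The calls were set beside the promoter letters. Among all genes 17.1% fell under anti-PD-1 and 19.6% in the average of both antibodies. Under anti-PD-1 9 of the 16 mitosis genes with CHR letters fell, among them Prc1, Plk1 and Ccnb2, and 3 of the 6 without, among them Ccnb1 and Nusap1. The medians were -0.90 and -0.83. Of the 12 S phase genes with E2F letters 2 fell, Uhrf1 and Rrm1, near the share of all genes, with a median of -0.43. Of the 8 without 0 fell, with a median of -0.43. In the average of both antibodies 9 of 16 mitosis genes with CHR letters and 2 of 6 without fell, and 2 of 12 S phase genes with E2F letters and 3 of 8 without. No test was made of these small groups.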

How the data were processed

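RNA of 15 bulk tumors (5 groups of 3 libraries, assigned from the sample labels) was sequenced by the authors. The deposited values are gene-level TPM, made by the authors with Bowtie2 and RSEM on builds given as mm10 and GRCm38, per the submitters' processing notes, which name no versions. Each column sums to 1000000, so a TPM is a share, and a group of abundant transcripts lowers all others. Read counts and depth are unknown, which leaves counting error out of every interval here.

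Of 23420 rows, 4865 were at 0 everywhere, and 13592 with at least 1 TPM in at least 3 libraries were tested. The fit was made on log2(TPM + 1) of all 5 groups with limma 3.58.1 in R 4.3.3 (trend and robust empirical Bayes, 10 residual degrees of freedom, two-sided, Benjamini-Hochberg adjusted p under 0.05 over all tested genes), for 8 comparisons. A fold change on this scale understates that of low genes. Every adjusted p in the text is from this limma fit unless another setting is named, and ± after a log2 fold change is its SE. The fit was also run on simulated data, with noise drawn separately for each gene and library. Those data hold no trend shared by the genes of a library, so the run cannot show how such a trend affects the calls.

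The members, lists and comparisons were chosen with earlier results of these data known. Named in each comparison were up to 6 called genes per phase with the smallest p or, with none called, the 2 with the smallest p, a set of anchor genes, the extremes of level and range, and up to 4 called genes per further list. The other genes are named to describe each role, after their values were seen. Transcript lengths came from GENCODE M21 (12759 tested genes, 93.9%), and their trend was removed by lowess with a span of 0.3. Promoters came from RefSeq (GRCm38.p6). Tables and figures were made with Python 3.11.15, pandas 2.3.3 and matplotlib 3.10.9. Alternatives were the pseudocount, the filter, 2 scalings, a fit on the compared groups, a replicate block, library weights (whose estimation did not converge), and leaving out each library. The length correction and the removal of 2 libraries were added after seeing the data.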

Additional observations from a re-analysis of the deposited data

How the results depend on the processing

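The number of the 50 genes called between the lines under anti-PD-1, 20 in the main analysis, was 9 with no filter, 12 with median-of-ratios scaling, 10 with quantile normalization, 32 with the compared groups fitted alone and 42 with library weights. It was 11 with the length trend removed and 0 without the 2 UV2 libraries, both added after seeing the data, and 0 to 25 when single libraries were left out. For the average of both antibodies, 21 in the main analysis, it was 12 with median-of-ratios scaling, 44 with library weights, 0 without the 2 UV2 libraries and 7 to 27 when single libraries were left out. Library weights, whose estimation did not converge, gave 11 called genes between the lines under isotype antibody, 2 for anti-PD-1 in parental tumors, 33 for anti-PD-1 in UV2 tumors, 12 and 4 for triple therapy against isotype and anti-PD-1, and 9 for the difference of differences. Leaving out single libraries gave 0 to 1 called genes for the isotype line comparison, the 1 without parental isotype replicate 3, and 0 to 0 for these other 5. Of all genes 17.1% fell under anti-PD-1 in the main analysis, 13.1% with median-of-ratios scaling, 13.0% with the length trend removed and 0.147% without the 2 UV2 libraries. In the average the shares were 19.6%, 16.9%, 18.1% and 5.28% in that order. For the other settings shares of all genes are not given here. Those counts therefore cannot be read as particular to these genes.

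With the replicate number as a block, 9 genes were called between the lines under anti-PD-1 and 14 in the average. The numbers were not taken to pair the libraries: of 30 pairs with the same number in different groups 10 had a correlation of their deviations above 0.1, and the range was -0.54 to 0.47.

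Of 804 values of 45 named results under alternatives, 670 kept direction and side of the threshold, 112 were no longer called, 17 became called, 5 uncalled values changed sign and 0 called values did. Of the phase medians 272 moved by less than their spread and 2 by more, both for S phase genes under anti-PD-1 (-0.15 with median-of-ratios scaling and -0.16 with the length trend removed). The cause of these changes was not tested. Depth is unknown, so what it limits could not be computed.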
